A study of Mus musculus with 6 samples.

Results

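Forced expression of the active RNA-editing enzyme ADAR2 (ADAR2 WT) in mouse Th17 cells was compared with transduction by the empty virus. The comparison took the 4 libraries of these groups, 2 of each, out of 6 libraries in the study; the other 2 carry ADAR2 E396A, the enzymatically dead form. The libraries were assigned by the deposited table in which they appear and, for empty vector, by their presence in the tables of both constructs.

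All cells were naive CD4+ T cells of wild-type mice aged 8 to 12 weeks, kept free of specific pathogens on a normal diet; the strain is not given in the sources used here. They were stimulated with 0.25 ug/ml anti-CD3 and 1 ug/ml anti-CD28 and turned toward the Th17 state with 0.1 ng/ml TGF-beta and 20 ng/ml IL-6. After 24 h they received a murine stem cell virus (MSCV) retrovirus, which was either empty or carried ADAR2 WT, and they stayed a further 48 h in 0.3 ng/ml TGF-beta and 20 ng/ml IL-6. RNA was taken at 72 h. Per the study's design text, cells of 2 mice were used and each construct was compared with empty vector of the same mouse, so that n = 2. The libraries paired in this way are called donors A and B; this pairing rests on statistics that the authors deposited, and no label ties a library to a mouse. Whether transduced cells were sorted from the rest, and what share was transduced, is not given in the sources used here. In bulk RNA, fewer cells of a type and less RNA per cell cannot be told apart.

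ADAR2, encoded by Adarb1, is an adenosine deaminase that converts adenosine to inosine in double-stranded RNA, where inosine is read as guanosine. It is best known from the brain, where it recodes glutamate receptor transcripts, and it binds RNA through double-stranded RNA-binding domains that do not need the catalytic site. Its relative ADAR1, encoded by Adar, keeps self RNA from setting off the sensors of double-stranded RNA that start the interferon response. Th17 cells are helper T cells that make IL-17A and IL-17F. Transcript abundance was measured here, and editing was not.

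The 4 libraries held 16496328 to 20127063 reads assigned to genes, the lowest being ADAR2 WT of donor B. The noncoding RNA gene Gm26917, named after its values were seen, took 8.68 to 10.5% of reads in these libraries. T cell markers were abundant: Cd4 was at 12013 to 15997 normalized counts (reads divided by a factor for library depth) and Trac, the constant region of the T cell receptor alpha chain, at 2994 to 3889. The B cell marker Ms4a1 and the myeloid marker S100a8 were at 0 in all 4 libraries, but other members of their lists were not. The 7 B cell markers summed to 243 and 158 normalized counts with empty vector in donors A and B, and to 191 and 172 with ADAR2 WT. Of these, the immunoglobulin gene Ighm gave 200 and 128.5 with empty vector and 160.2 and 116.5 with ADAR2 WT. The 11 myeloid markers summed to 72 and 88 with empty vector and to 67 and 84 with ADAR2 WT. The Treg factor Foxp3 was between 7.79 and 19.8.

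The killer-cell receptor genes Klrd1, Klrc1 and Klrk1, the cytotoxic cell genes Nkg7 and Ctsw and the T cell surface gene Thy1 fell with ADAR2 WT. By contrast, 10 of 55 interferon-stimulated genes, 5 of 10 mitochondrial genes that were listed and tested, and Il9 rose. Of 14958 genes tested, 122 had a limma adjusted p under 0.05, which is 0.816% of them. The higher genes numbered 66 (0.441%) and the lower genes 56 (0.374%). A change of at least 1.5-fold was found in 38 of the higher and 47 of the lower genes, and one of at least 2-fold in 15 and 25. The median log2 fold change of all genes tested was -0.0025, and 7416 of them were positive.

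The number of calls rests on how limma estimates the spread with 2 libraries per group. The count of 122 comes from a fit in which the prior spread follows expression level (the mean-variance trend). The test as first written down did not include that trend, and without it 0 genes passed, with 1556 at an unadjusted p under 0.05 against 2108 with the trend. The trend was adopted after that 0 had been seen, because it returns the values of an earlier analysis of these data. Adarb1 itself had an adjusted p of 0.32 without the trend, the largest of its alternatives, while the smallest was 7.06e-243 with only the 4 libraries. The edgeR quasi-likelihood test with TMM called 136 genes, of which 121 were among the 122, and DESeq2 called 212, including 116 of them. The authors' deposited table has 196 genes at an adjusted p under 0.05, and these include 97 of the 122. Il9, Gphb5 and Mmp10 are not among the 97, with adjusted p of 0.072, 0.209 and 0.302 in the authors' DESeq2 test. Other genes described below also fell short in that test, such as Cmpk2 (0.0547), Xaf1 (0.093), Nos2 (0.119), Tgfb3 (0.13) and Gipr (0.224). Without the donor block, Adarb1 and Thy1 were the genes that passed. Without the ADAR2 WT library of donor A, Adarb1 alone passed, and without that of donor B 6 genes did. Leaving out empty vector of donor A gave 66 genes and that of donor B 913, and leaving out ADAR2 E396A of donor A or B gave 941 and 1217. None of the 122 changed sign under any alternative run. These runs reused the same libraries, and all 122 had the same sign in both donors, so a change of sign could hardly have occurred.

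**Figure D1:**
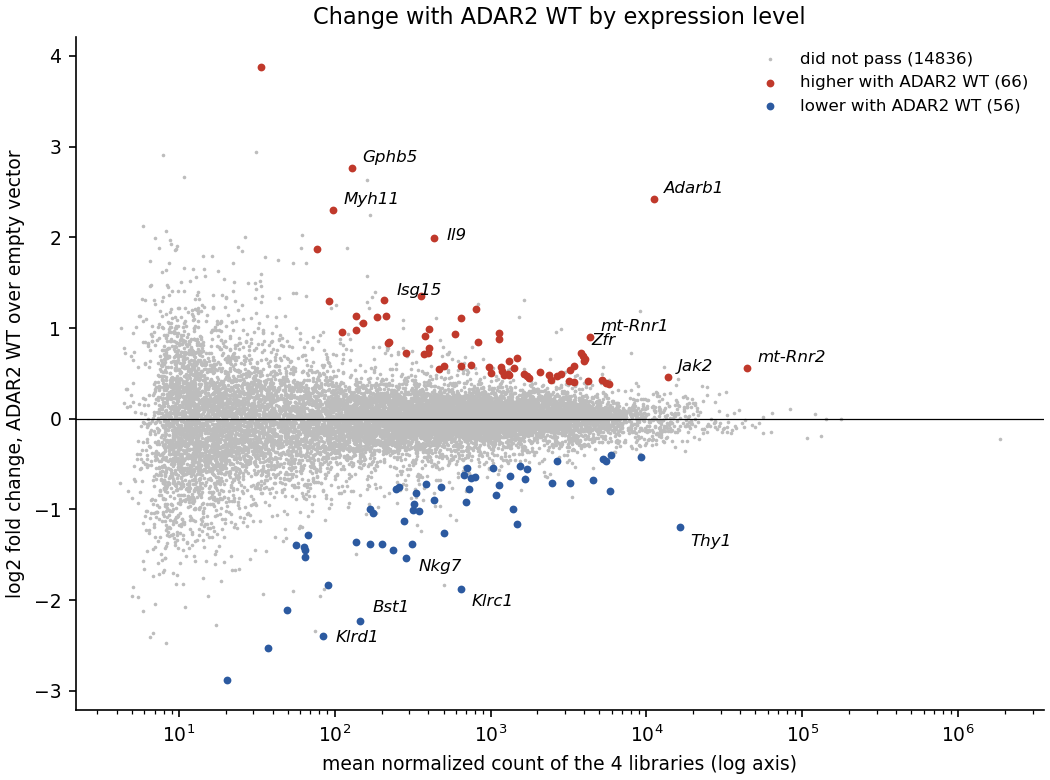
Each point is 1 of the 14958 genes tested, with its mean normalized count over the 4 libraries on a log axis and its log2 fold change, ADAR2 WT over empty vector, on the vertical axis. The 66 higher genes are red and the 56 lower genes blue; Adarb1 and Thy1 stand out among the most abundant genes, while most large changes lie among genes of low to middle level.

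The changes were then set out by donor, since the 2 donors share no library. All 122 genes changed the same way in both, which the test favours by its nature. Over all genes tested, 62.7% had the same sign in both donors, and 65.7% of the 10745 genes averaging 50 normalized counts or more did. Across the latter genes the changes of the donors gave Pearson's r = 0.56 and Spearman's rho = 0.45, as a description over genes that share a library within each donor. In 104 of the 122 genes, both ADAR2 WT libraries lay on one side of both empty-vector libraries; over all genes tested this held for 18.7% as higher and 18.5% as lower. In the other 18 the donors differed in level by more than the groups did, and the groups overlapped.

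**Figure D2:**
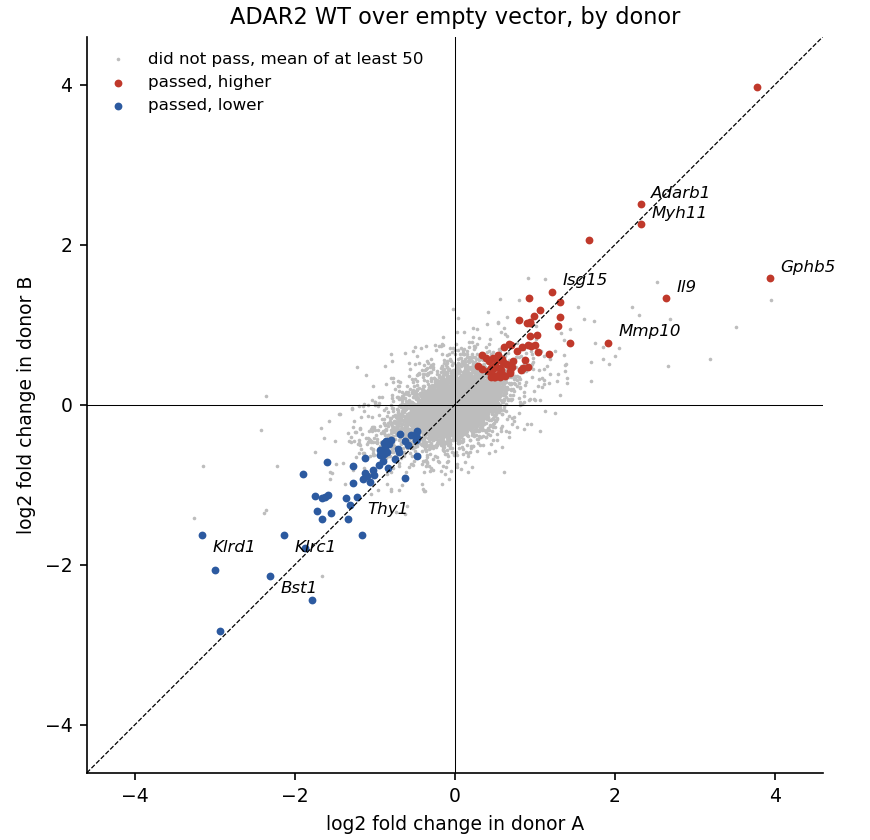
Log2 fold change, ADAR2 WT over empty vector, in donor A (horizontal) and donor B (vertical); grey points are genes that did not pass and average 50 normalized counts or more, red and blue points passed as higher or lower, and the dashed line marks equal change. All coloured points lie in the quadrants of equal sign; Gphb5, Il9 and Mmp10 rose more in donor A, and Adarb1, Bst1 and Thy1 lie near the line.

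The transgene's own gene was read first. Adarb1, or ENSMUSG00000020262.15, lies on chromosome 10 from 77290726 to 77418270 (mm10). It had 3672 normalized counts with empty vector and 18422 with ADAR2 WT in donor A, and at 3332 and 18999 in donor B. The groups did not overlap, and Adarb1 rose by 2.42 on the log2 scale (SE 0.07, adjusted p = 2.21e-06). Transgene reads that fell on this gene could not be told apart from endogenous ones. What share of transgene reads did so was not tested. The empty-vector level shows that the gene was already expressed. Adar went from 2243 to 2637 in donor A and from 2671 to 3224 in donor B, a log2 difference of 0.25 (SE 0.06, adjusted p = 0.141) that did not pass. The tRNA deaminase genes Adat1 and Adat2 had differences of 0.12 and 0.02 and did not pass.

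Thy1, which encodes the Thy-1 surface glycoprotein of T cells, was the most highly expressed gene that fell (ENSMUSG00000032011.5, chromosome 9, 44043384 to 44048579). It went from 24304 normalized counts to 10400 in donor A and from 21422 to 9596 in donor B. The groups were far apart relative to the spread within each, and the log2 fold change was -1.19 (SE 0.07, adjusted p = 0.000471). Of 20 genes of the T cell receptor complex and coreceptors, Thy1 was the 1 that passed. Cd3g, a CD3 chain gene, had a log2 difference of -0.30 (adjusted p = 0.287), Cd4 -0.20 (adjusted p = 0.315), and the kinase gene Lck -0.13 (adjusted p = 0.401). The list's median was -0.11, against -0.0025 over all genes.

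The receptors of the natural killer gene complex held the lowest median of the lists described. CD94 (Klrd1) pairs with NKG2A (Klrc1) to form an inhibitory receptor for the MHC class Ib molecule Qa-1, and NKG2D (Klrk1) is an activating receptor for stress-induced ligands. Of 9 genes of this list that were tested, these 3 fell, none rose, and the median log2 fold change was -1.38. Klrc1 went from 1052 to 239 normalized counts in donor A and from 993 to 321 in donor B, a log2 fold change of -1.88 (SE 0.18, adjusted p = 0.00749). Klrd1 went from 173 to 18.4 in donor A and from 109 to 34.6 in donor B, a log2 fold change of -2.39 (SE 0.33, adjusted p = 0.0248). For neither gene did the groups overlap. Klrk1 went from 288 to 76.7 and from 199 to 108 in donors A and B, and its log2 fold change was -1.38 (SE 0.23, adjusted p = 0.0416). Donor A showed the larger fall in Klrc1, Klrd1 and Klrk1.

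The 3 genes lie together on chromosome 6, between 129591782 and 129678973 (mm10). Other members of the complex did not pass: Klrc2 was at 32.3 and 26.3 with empty vector and 7.77 and 3.46 with ADAR2 WT (log2 difference -2.27, adjusted p = 0.0934), and Klri2 had -1.93 (adjusted p = 0.0699). Cd69, an activation marker encoded in the same complex, had 0.21 (adjusted p = 0.379). Of the listed CD8 and NK cell markers, Ncr1, Klrb1c and Klrg1 were at 0 in all 4 libraries. The others were not: Eomes was between 7.8 and 21.4 normalized counts and Gzmm between 6.2 and 13.6. Cd8a was between 9.4 and 65.2 and Cd8b1 between 112 and 158.3. The summed CD8 and NK cell markers were at 179 and 212 normalized counts with empty vector and at 190 and 182 with ADAR2 WT, and none of the 3 that were tested passed.

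Cytotoxic effector and chemokine genes followed, with 3 of 14 tested falling, none rising, and a median log2 fold change of -0.52. Nkg7, a granule membrane protein gene of cytotoxic lymphocytes (ENSMUSG00000004612.9, chromosome 7, 43437073 to 43438249), went from 635 to 201 normalized counts in donor A and from 231 to 85.4 in donor B. Its log2 fold change was -1.54 (SE 0.14, adjusted p = 0.0049), and although donor B had about as few counts with empty vector as donor A with ADAR2 WT, the groups did not overlap. Ctsw, which encodes the protease cathepsin W of cytotoxic cells, went from 610 to 292 and from 245 to 126, so that its groups overlapped across donors while both donors fell (log2 fold change -1.01, SE 0.12, adjusted p = 0.0177). The chemokine gene Ccl9 went from 187 to 50.5 and from 98.4 to 27.7 (log2 fold change -1.83, SE 0.25, adjusted p = 0.0259). Perforin (Prf1) and granzyme B (Gzmb), the pore-forming protein and the leading protease of cytotoxic granules, had log2 differences of -1.49 (adjusted p = 0.0898) and -0.86 (adjusted p = 0.184). Neither passed. From empty vector to ADAR2 WT, Gzmb went from 6473 to 2693 in donor A and from 2424 to 1772 in donor B. Prf1 went from 299 to 63.1 in donor A and from 120 to 70.4 in donor B.

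Th1 genes, which share regulators with the cytotoxic program, did not pass: 0 of 12 did so, with a median of -0.27 and 1 positive. Tbx21, the gene of the Th1 factor T-bet, was at 860 and 995 with empty vector and at 745 and 835 with ADAR2 WT (log2 difference -0.23, SE 0.12, adjusted p = 0.424). Ifng was at 233 and 213 with empty vector and at 181 and 100 with ADAR2 WT, with a log2 difference of -0.72 (SE 0.27, adjusted p = 0.283). For both genes the libraries did not overlap, but the differences did not pass.

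**Figure D3:**
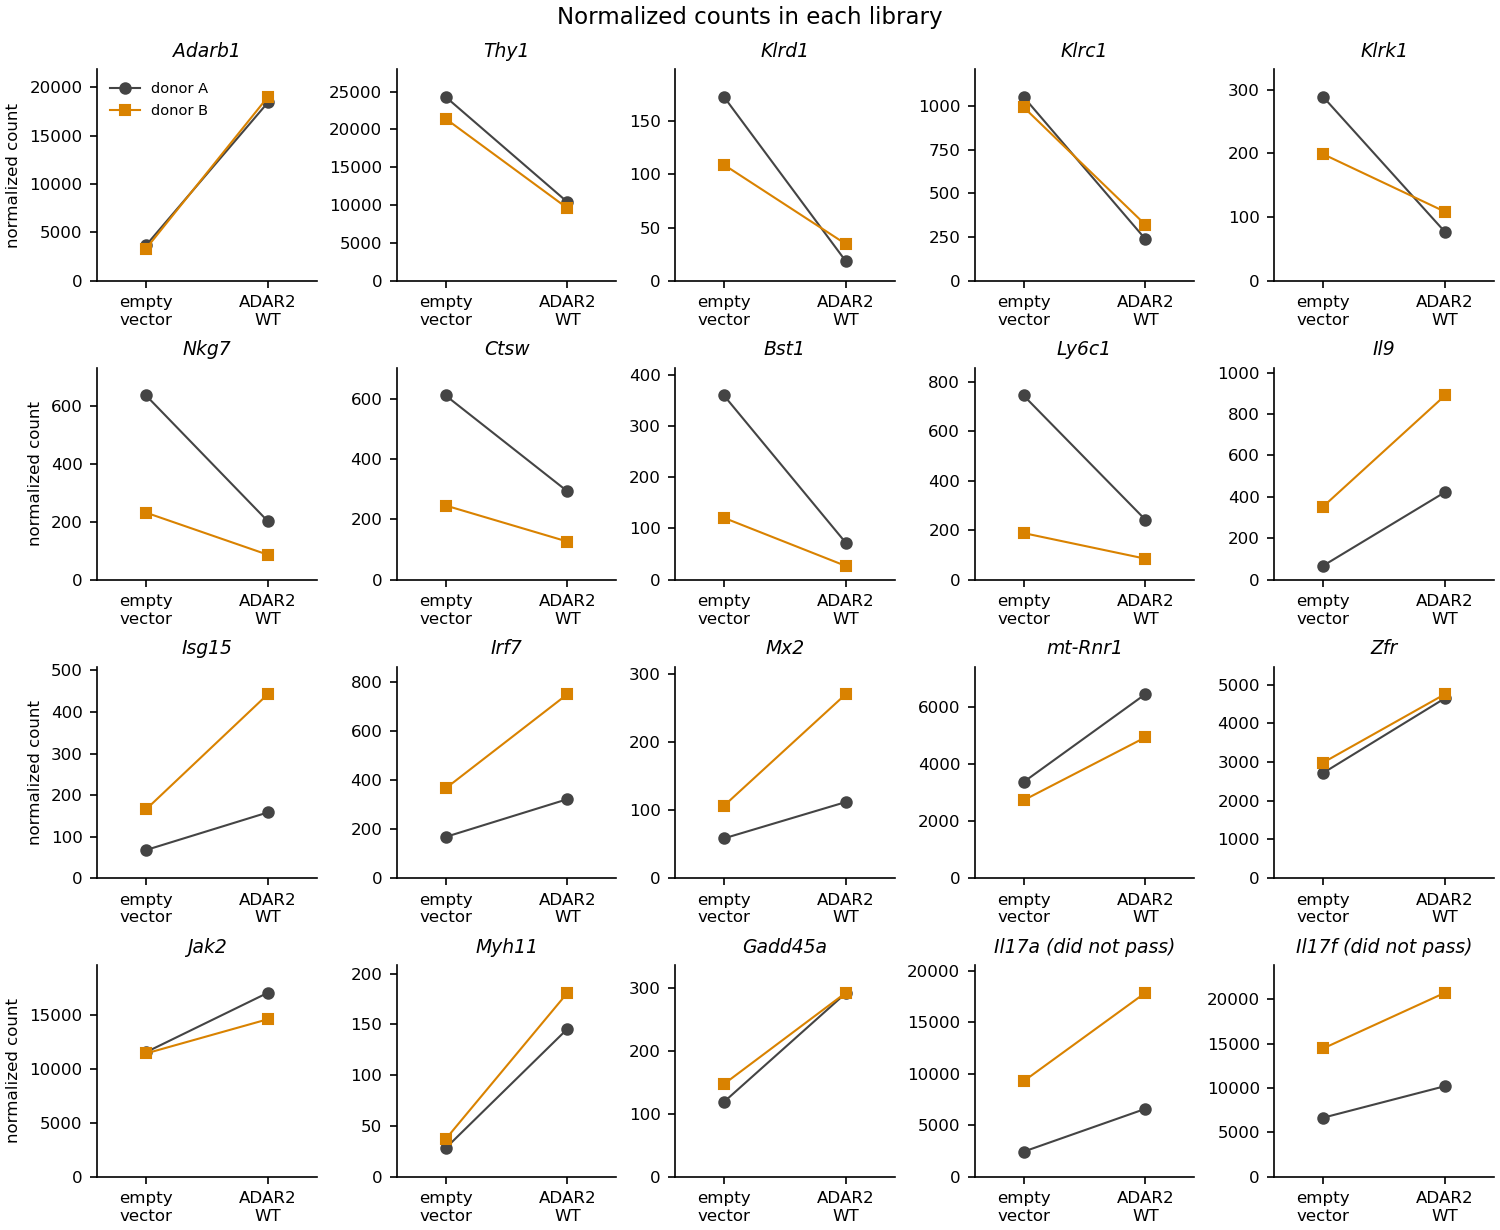
Normalized counts of 20 genes in each of the 4 libraries, with 1 line per donor joining empty vector to ADAR2 WT; each vertical axis starts at 0 and has its own scale. Adarb1 and Thy1 lie on nearly the same line in both donors, the killer-cell and cytotoxic genes fall in both, the interferon-stimulated genes rise in both from a higher level in donor B, and Il17a and Il17f are the genes shown that did not pass.

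Interferon-stimulated genes are induced by type I interferon and encode antiviral effectors, sensors and regulators. Of 55 tested, 10 rose and none fell; 50 had a positive fold change, and the median was 0.39, against -0.0025 over all genes. The median was 0.21 in donor A and 0.55 in donor B, and donor B also had the higher empty-vector level of the leading members. The regulator Irf7, the interferon-induced transcription factor that amplifies the response, went from 168 to 321 normalized counts in donor A and from 365 to 749 in donor B (log2 fold change 0.98, SE 0.10, adjusted p = 0.0125). Isg15, a ubiquitin-like modifier, went from 67.7 to 158 and from 166 to 443 (log2 fold change 1.31, SE 0.16, adjusted p = 0.0177). Usp18, the protease that removes ISG15 and restrains interferon signalling, went from 288 to 505 and from 515 to 1071 (log2 fold change 0.93, SE 0.15, adjusted p = 0.0371). In these 3 genes both donors rose, but the empty-vector level of donor B lay above the ADAR2 WT level of donor A, so the groups overlapped.

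Among sensors and effectors, Ifih1, which encodes the double-stranded RNA sensor MDA5, rose by 0.57 (SE 0.09, adjusted p = 0.0371) on the log2 scale. Eif2ak2, the gene of the double-stranded RNA-activated kinase PKR, went from 1741 to 2208 and from 2153 to 3320, and rose by 0.48 (SE 0.09, adjusted p = 0.0492). Mx2, an antiviral GTPase gene annotated as a polymorphic pseudogene, rose by 1.13 (SE 0.17, adjusted p = 0.0362) and Cmpk2, a mitochondrial nucleotide kinase gene, by 1.05 (SE 0.17, adjusted p = 0.0375). Ifi27l2a rose by 0.67 (SE 0.08, adjusted p = 0.0193). Zbp1, a nucleic acid sensor gene, and Xaf1 were the other members that passed. Ifit1, an antiviral RNA-binding protein gene, had a log2 difference of 0.79 (adjusted p = 0.0707) and Ifit2 -0.11 (adjusted p = 0.782), so the list did not move as one. Ifi211 and Trim30d, members of interferon-inducible families outside the list, also passed as higher. Irf8, an interferon regulatory factor gene on the T cell activation list, fell by 0.73 (SE 0.12, adjusted p = 0.0416), at 1618 and 1219 normalized counts with empty vector and 862 and 827 with ADAR2 WT.

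The interferon-stimulated response element is the DNA motif bound by the ISGF3 and IRF transcription factors. Its core, GAAA, then any 2 bases, then GAAA, searched on both strands, was looked for in RefSeq promoter windows (GRCm38.p6, 250 bases before to 50 after the start site), which were found for 39 of the 66 higher and 39 of the 56 lower genes. It occurred in 3.72% of the windows of 10166 genes tested, in 8 of the 39 higher genes (20.5%) and in 2 of the 39 lower genes (5.13%). Those lower genes were Ncf1 and Sipa1l1, with the core 82 and 17 bases before a start site. Of the 10 interferon-stimulated genes that passed, 6 had a window, and 3 of these held the core, against 20 of 43 (46.5%) of all tested members of that list with a window. Windows of Ifi27l2a, Mx2, Usp18 and Zbp1 were not matched. Gphb5, the gene with the highest fold change of those that may be named, is no member of the list. Of the matches in higher genes, those lying before the start site are shown for Isg15, Ifi211, Trim30d and Gphb5. They are printed 5′ to 3′ along the sense strand of each gene, in all 4 the minus strand of the chromosome, with the core or its reverse complement in capitals.
Isg15, chr4:156200845-156200926: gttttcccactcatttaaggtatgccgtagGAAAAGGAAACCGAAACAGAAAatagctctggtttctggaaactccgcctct
Ifi211, chr1:173913047-173913113: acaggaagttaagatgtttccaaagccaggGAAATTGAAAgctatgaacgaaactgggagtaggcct
Trim30d, chr7:104507851-104507920: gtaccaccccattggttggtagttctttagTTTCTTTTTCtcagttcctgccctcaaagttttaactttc
Gphb5, chr12:75416929-75416998: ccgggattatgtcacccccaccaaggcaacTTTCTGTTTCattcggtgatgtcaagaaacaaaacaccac
The Isg15 window held 3 overlapping matches, which begin 78, 72 and 66 bases before the start site. The others held 1 each, at 37 bases before the start in Ifi211, 41 in Trim30d and 187 in Gphb5. The T-box core AGGTGTGA, searched in the same way for the killer-cell and cytotoxic genes, was in 1.12% of the windows of genes tested and in 1 of the 4 such passing genes with a window, Nkg7. A match describes these letters only.

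Transcripts of the mitochondrial genome encode core subunits of the respiratory chain and the ribosomal RNAs that translate them. Of the 10 protein-coding and ribosomal RNA genes listed and tested, 5 rose and none fell, with a median log2 fold change of 0.55; over all 15 genes of chromosome M tested, 6 rose. The ribosomal RNA gene mt-Rnr1 went from 3359 to 6435 normalized counts in donor A and from 2723 to 4924 in donor B (log2 fold change 0.90, SE 0.06, adjusted p = 0.0017). The larger ribosomal RNA gene mt-Rnr2 went from 39009 to 57683 and from 32655 to 47936 (log2 fold change 0.56, SE 0.06, adjusted p = 0.0142). The groups did not overlap for either gene. The complex I subunit genes mt-Nd2, mt-Nd1 and mt-Nd4 rose by 0.88, 0.58 and 0.53 (SE 0.11, 0.09 and 0.08), with adjusted p of 0.0193, 0.0371 and 0.0371. The sixth, the transfer RNA gene mt-Tp, which is outside the list, rose by 0.96 (SE 0.17, adjusted p = 0.0486). The complex IV subunit gene mt-Co1 differed from these, with 21609 and 14918 in the empty-vector libraries and 17760 and 16339 with ADAR2 WT (log2 difference -0.08, adjusted p = 0.82).

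Nuclear genes of the same machinery did not pass. None of 35 respiratory chain subunit genes and none of 77 mitochondrial ribosomal protein genes did, with medians of 0.05 and 0.06. The mitochondrial genome took 0.377 and 0.316% of reads with empty vector and 0.496 and 0.443% with ADAR2 WT, and Gm26917 made up 10.5 and 9.85% against 9.01 and 8.68%. The part of RNA depletion and of RNA quality in these shares was not tested. A noncoding RNA that rose alongside was n-R5-8s1, annotated as a 5.8S ribosomal RNA gene, with 6.25 and 0.97 normalized counts with empty vector and 98.1 and 30 with ADAR2 WT. It has a mean under 50 and was named after its values were seen.

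Il9, which encodes the growth factor IL-9 of Th9 cells and mast cell responses, was among the 4 highest genes by fold change that may be named (ENSMUSG00000021538.3, chromosome 13, 56479277 to 56482246). It went from 66.7 to 422 normalized counts in donor A and from 353 to 890 in donor B, and rose by 1.99 (SE 0.27, adjusted p = 0.024). On the log2 scale the rise was 2.65 in donor A and 1.33 in donor B. The donors differed by 2.39 with empty vector, more than the joint change of 1.99, and the groups nonetheless did not overlap. Of 13 type 2 and Th9 genes tested, 2 rose and none fell, with a median of 0.44. The other was Ccr4, a chemokine receptor gene of type 2 helper cells, with 4031 and 4775 normalized counts with empty vector and 5720 and 6099 with ADAR2 WT (log2 fold change 0.43, SE 0.07, adjusted p = 0.0426). Gata3, the gene of the Th2 master factor, was at 1713 and 1807 with empty vector and at 4075 and 2882 with ADAR2 WT, and its log2 difference of 0.96 (SE 0.44, adjusted p = 0.371) did not pass. Il13 and Il4 had differences of 1.31 (adjusted p = 0.414) and 0.94 (adjusted p = 0.329).

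The genes that define the Th17 state did not pass, in either direction. Of 12 Th17 cytokine and receptor genes 6 were positive, with a median of -0.09. Il17a went from 2437 to 6602 normalized counts in donor A and from 9279 to 17878 in donor B, a log2 difference of 1.19 (SE 0.24, adjusted p = 0.0803). Il17f went from 6646 to 10201 and from 14443 to 20715, a log2 difference of 0.57 (SE 0.31, adjusted p = 0.449). Both cytokines were thus higher with ADAR2 WT in each donor, but the donors differed by more than the groups and the test was not passed. Il21, another Th17 cytokine gene, had 0.57 (SE 0.16, adjusted p = 0.157). Il22 was higher with ADAR2 WT in donor A (3042 and 4759) and lower in donor B (6785 and 6439), with a log2 difference of 0.29 (SE 0.16, adjusted p = 0.474). None of 12 Th17 transcription factor genes passed, and their median was -0.08. Rora, which encodes a nuclear receptor of the Th17 program, was at 6672 and 7233 with empty vector and at 4964 and 5854 with ADAR2 WT (log2 difference -0.37, SE 0.10, adjusted p = 0.156). None of 14 Treg genes passed, with a median of -0.03, and Foxp3 had a log2 difference of 0.11 (SE 0.46, adjusted p = 0.94).

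The signals that drive the culture were examined next. In the TGF-beta pathway, 1 of 24 genes rose and 1 fell, with a median of -0.03. Tgfb3, which encodes a TGF-beta ligand, went from 125 to 38.8 normalized counts in donor A and from 63.3 to 27.7 in donor B (log2 fold change -1.41, SE 0.24, adjusted p = 0.0436). Pmepa1, a target gene that dampens TGF-beta signalling, went from 1325 to 1814 and from 1658 to 2273 (log2 fold change 0.45, SE 0.07, adjusted p = 0.0352). The receptor gene Tgfbr1 and the signal transducer gene Smad4 had differences of -0.04 and -0.03. In the IL-6 and STAT3 pathway, Jak2 was the 1 of 14 genes that passed; it encodes a kinase attached to cytokine receptors. It went from 11566 to 17087 and from 11451 to 14629, with groups that did not overlap (log2 fold change 0.46, SE 0.07, adjusted p = 0.0352). The feedback inhibitor gene Socs3 had -0.40 (adjusted p = 0.222) and the receptor gene Il6st -0.42 (adjusted p = 0.0666), and the median of the list was -0.17.

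Receptors at the T cell surface moved in both directions. Among 18 costimulatory and inhibitory receptors, Cd226 rose by 0.55 (SE 0.09, adjusted p = 0.0391) and Cd96 fell by 0.72 (SE 0.11, adjusted p = 0.0371). These are a costimulatory receptor and a related receptor that bind the same ligand, CD155. Cd226 went from 835 to 1344 and from 1480 to 1984 normalized counts, while Cd96 went from 524 to 290 and from 438 to 291; the groups overlapped for Cd226 and not for Cd96. Among 14 chemokine receptors, Ccr4 rose, as above, and Ccr1, a receptor for inflammatory chemokines, fell by 0.75 (SE 0.13, adjusted p = 0.0434). Of 6 Ly6 surface genes Ly6c1 fell, from 745 to 242 and from 188 to 84.2 (log2 fold change -1.38, SE 0.18, adjusted p = 0.024), with groups that overlapped across donors. Of 5 Ifitm genes, which encode small interferon-inducible membrane proteins, Ifitm1 fell by 0.77 (SE 0.11, adjusted p = 0.0286). Ifitm3 had 0.32 (adjusted p = 0.274), so the passing member of this family moved against the interferon-stimulated genes that passed.

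Of 15 genes of double-stranded RNA-binding proteins, Zfr and Eif2ak2 rose and none fell, with a median of 0.01. Zfr encodes a zinc finger protein that binds double-stranded RNA and acts on splicing. It was at 2719 and 2988 normalized counts with empty vector and at 4652 and 4758 with ADAR2 WT, and rose by 0.72 (SE 0.06, adjusted p = 0.0049). The 2 libraries of each group were close together and the groups well apart. The RNA helicase gene Dhx9 had a log2 difference of -0.14 (adjusted p = 0.389), and Dicer1, whose product cuts double-stranded RNA, had -0.01 (adjusted p = 0.964). None of 15 tested genes known as recoding targets of editing passed, with a median of -0.02, and the glutamate receptor gene Gria2, the classic brain target of ADAR2, was at 0 in all 4 libraries.

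Several gene groups tied to growth leaned one way in the joint fold change, with at most 1 gene of each passing. All 27 mitosis genes were positive, with a median of 0.25, and 0 passed; the median was 0.41 in donor A and 0.12 in donor B. Mki67, the proliferation marker, had a log2 difference of 0.25 (adjusted p = 0.123) and Ube2c, a ubiquitin-conjugating enzyme of mitotic exit, had 0.54 (adjusted p = 0.129). Of 33 unfolded protein and integrated stress response genes, 27 were positive and 0 passed. Their median was 0.12, with 0.26 in donor A and 0.01 in donor B. Hspa5, the chaperone BiP of the endoplasmic reticulum, was at 17788 and 22439 with empty vector and at 24895 and 26320 with ADAR2 WT (log2 difference 0.36, adjusted p = 0.108). Of 31 DNA replication genes 26 were positive and 0 passed, with a median of 0.13 (0.2 in donor A and 0.03 in donor B). Of 78 cytosolic ribosomal protein genes 17 were positive, with a median of -0.08, and 1 passed: Rpl23a rose by 0.47 (SE 0.07, adjusted p = 0.0331), and ribosomal protein genes have many processed copies that could share its reads. The same sign in both donors was found for 22 of 27 mitosis, 20 of 33 stress response and 18 of 31 DNA replication genes. It was found for 64 of 78 ribosomal protein genes and for 62.7% of all genes tested. One of 55 histone genes passed, the linker histone gene Hist1h1e, which rose by 0.42 (SE 0.07, adjusted p = 0.0426). Of 26 p53 targets Gadd45a, a growth arrest gene, rose from 119 to 291 and from 147 to 292 normalized counts (log2 fold change 1.14, SE 0.18, adjusted p = 0.0371), while the p53 target Cdkn1a had 0.05 (adjusted p = 0.762). None of 26 glycolysis and hypoxia genes and none of 31 cholesterol and fatty acid synthesis genes passed, with medians of -0.08 and 0.02.

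**Figure D4:**
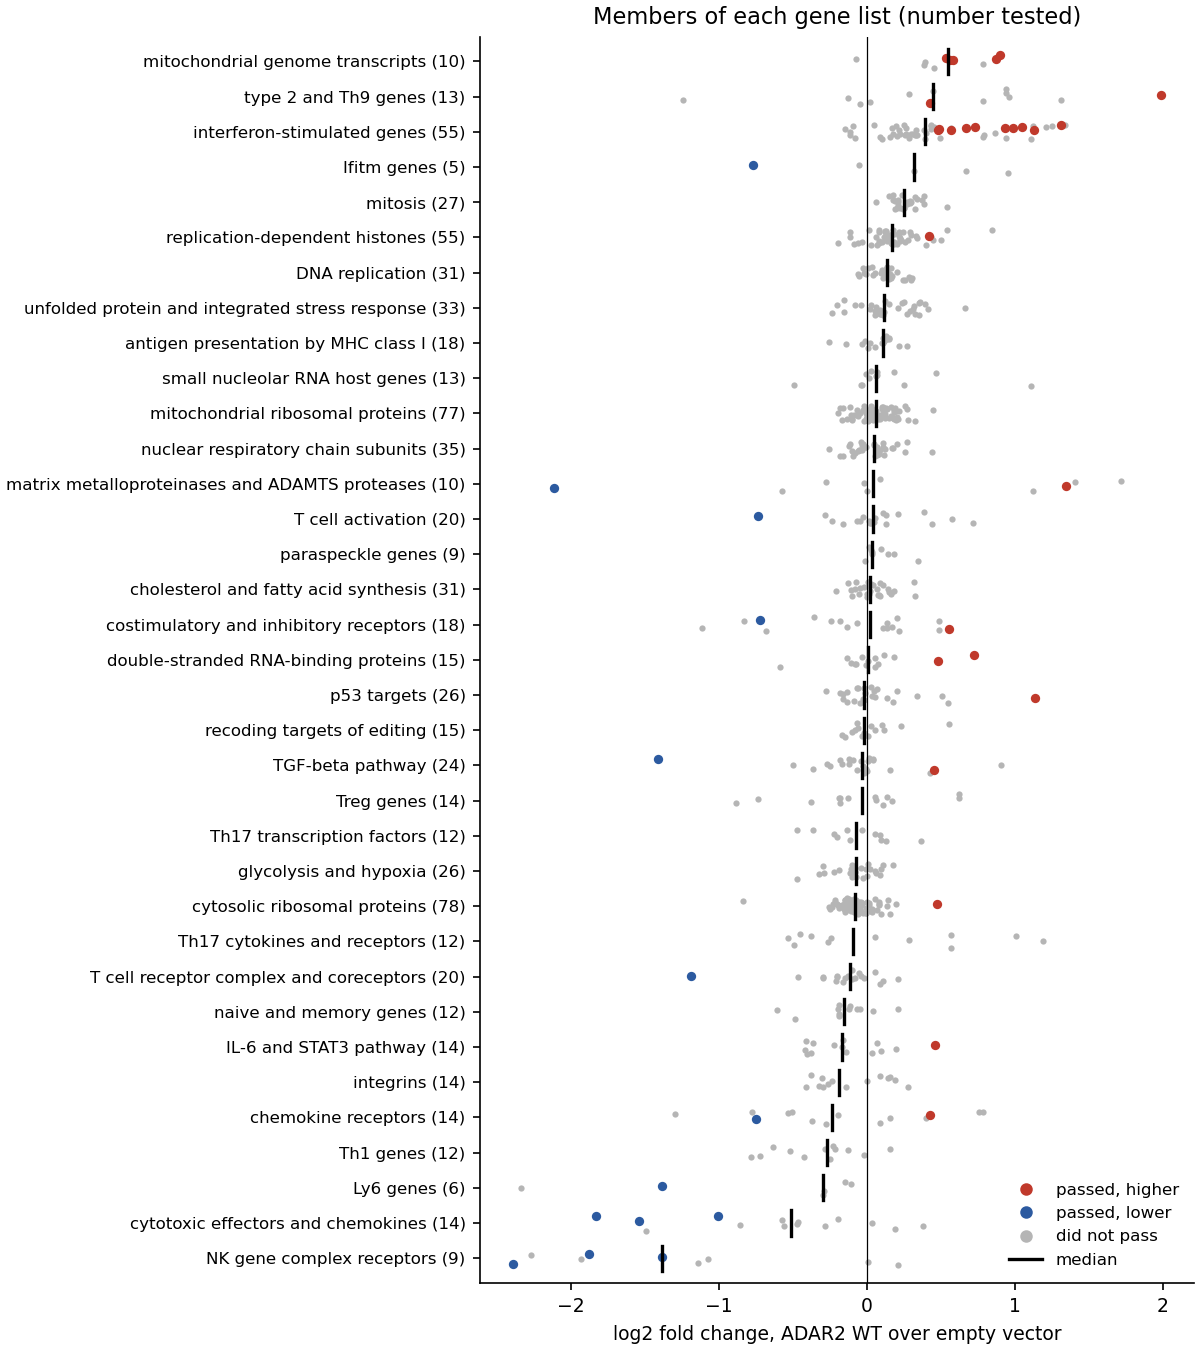
Log2 fold change, ADAR2 WT over empty vector, of every tested member of each gene list, with the number tested in brackets; red and blue points passed as higher or lower, grey points did not pass, and the black bar is the list's median. Mitochondrial genome transcripts have the highest median (0.55) and receptors of the NK gene complex the lowest (-1.38), and all 27 mitosis genes lie above 0 with none passing.

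The highest genes by fold change included several known mainly for roles outside lymphocytes. Gphb5, a subunit gene of a glycoprotein hormone, was at 13.5 and 70.1 normalized counts with empty vector and at 222 and 212 with ADAR2 WT, so that most of its rise of 2.76 (SE 0.47, adjusted p = 0.045) came from donor A. Myh11, the smooth muscle myosin heavy chain gene, went from 28.1 to 146 and from 37.0 to 181, and rose by 2.30 (SE 0.25, adjusted p = 0.0125) to much the same extent in both donors. Myh11 is also a marker on the stromal and epithelial list, of which it was the 1 of 5 tested members that passed. That list summed to 492 and 790 normalized counts with empty vector and 616 and 1061 with ADAR2 WT, of which Lum gave 131 and 538 with empty vector and 190 and 650 with ADAR2 WT; Col3a1 and Krt8 were at 0 in all 4 libraries and Acta2, the smooth muscle actin gene, was between 0 and 5.77. Mmp10, a matrix-degrading protease gene, went from 119 to 451 and from 316 to 543 (log2 fold change 1.35, SE 0.24, adjusted p = 0.0486). Egfr, the epidermal growth factor receptor gene, went from 92.7 to 195 and from 140 to 320 (log2 fold change 1.12, SE 0.15, adjusted p = 0.024). C1s2, a complement protease gene, rose by 1.30 (SE 0.19, adjusted p = 0.0331), Nos2, the inducible nitric oxide synthase gene, by 0.98 (SE 0.16, adjusted p = 0.0391), and Armcx4 by 0.95 (SE 0.11, adjusted p = 0.0177). Other higher genes were the growth factor gene Fgf2, the neurotrophin receptor gene Ntrk3, the lipoprotein receptor gene Vldlr, the gap junction gene Gja1, the CD30 ligand gene Tnfsf8, the inhibitory receptor gene Cd200r1, the NF-kappaB inhibitor gene Nfkbie and the RNA-binding protein gene Hnrnpd, with log2 fold changes from 0.42 to 0.85.

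Bst1, a surface enzyme that cleaves NAD and is related to CD38, had the second smallest adjusted p of the lower genes after Thy1 (ENSMUSG00000029082.17, chromosome 5, 43818885 to 43843986). It went from 360 to 71.8 normalized counts in donor A and from 121 to 26.5 in donor B, a log2 fold change of -2.23 (SE 0.16, adjusted p = 0.0017). Donor A held about as much more Bst1 than donor B in each group, and the groups did not overlap. Trib2, a pseudokinase gene, went from 536 to 159 and from 171 to 77.3 (log2 fold change -1.44, SE 0.23, adjusted p = 0.0371). Hopx, a homeodomain cofactor gene, went from 270 to 89.3 and from 132 to 60.0 (log2 fold change -1.36, SE 0.20, adjusted p = 0.0352). The pseudokinase gene Styk1 fell by 1.53 (SE 0.24), Ociad2 by 1.44 (SE 0.21), the incretin receptor gene Gipr by 1.39 (SE 0.24), Filip1 by 1.38 (SE 0.18) and the peptide transporter gene Slc15a1 by 1.28 (SE 0.19), with adjusted p between 0.024 and 0.045. Below these in size came the surface lectin gene Cd93, the scavenger receptor gene Cd36, the semaphorin gene Sema7a, the signalling enzyme gene Plcg2, the oxidase subunit gene Ncf1, the T cell signalling regulator gene Ubash3a, the glucocorticoid-induced chaperone gene Fkbp5, the TNF receptor adaptor gene Traf1, and H2afy, the gene of the histone variant macroH2A1, with log2 fold changes from -1.26 to -0.40. Among passing genes with a mean under 50 were Adora3, Adamts14 and Gm13522, which fell, named after their values were seen.

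Passing genes within 1000000 bases of each other formed 9 groups. The killer-cell receptor genes on chromosome 6 were 1 of them, with all 3 members lower. On chromosome 7, Ifitm1 and B4galnt4 were lower and Irf7 higher, and on chromosome 9, Birc2 and Yap1 were lower and the neighbouring Mmp10 higher. H2afy was lower and Il9 higher within one such stretch of chromosome 13, between 56073619 and 56482246. Neighbours in these 3 stretches thus moved in opposite directions, while in each of the other groups all members moved the same way. Rpl23a with Nos2, Zbp1 with Pmepa1 and Cptp with Isg15 were higher. Neb with Gm13522 and Fkbp5 with a clone gene were lower. Whether passing genes lie together more often than other tested genes was not tested.

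The values with the dead enzyme were set beside those of the active one for the leading genes. Bst1 was at 295 and 95.01 normalized counts with ADAR2 E396A in donors A and B, Klrc1 at 698 and 1243, and Il9 at 86.7 and 222. For these 3 genes the difference of ADAR2 WT from ADAR2 E396A passed, with log2 differences of -1.91 (SE 0.16, adjusted p = 0.0116), -1.75 (SE 0.18, adjusted p = 0.0268) and 2.13 (SE 0.27, adjusted p = 0.0481). In all, 10 genes passed that test, each of them among the 122. For Zfr, at 4117 and 4334 with ADAR2 E396A, the difference was 0.16 (SE 0.06, adjusted p = 0.372), which did not pass. Isg15 was at 102 and 211 with ADAR2 E396A, and its difference of 0.84 (SE 0.16, adjusted p = 0.112) did not pass. Thy1 was at 11407 and 11528 with ADAR2 E396A, a log2 fold change of -0.99 (SE 0.07, adjusted p = 0.0021) from empty vector, so it fell with the dead enzyme too, and its difference between the constructs, -0.20 (SE 0.07, adjusted p = 0.298), did not pass. Both constructs were compared with the same empty-vector libraries.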

How the data were processed

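Per the labels' protocols, RNA depleted of ribosomal RNA was sequenced (NovaSeq) in 6 libraries of 3 groups. The mm10 build, STAR 2.6.1a, featureCounts and DESeq2 1.18.1 are named per the submitters' processing notes; for annotation and strand setting nothing is given in the sources used here. Per the file headers, the authors deposited for each construct and 55450 genes a DESeq2 mean and normalized counts (a signal), a log2 fold change with its error, a Wald statistic (a score) and p-values; their sign is the reverse of that used here.

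Reads were recovered by dividing each column by its smallest value above 0, and 100% of values were whole within 0.001 of a read. All IDs were found in GENCODE vM21. Library columns carry no group or donor label. Groups follow the tables' names. Donors follow the pairing that, when DESeq2 was refitted, came within 8e-04 of the authors' deposited Wald statistics over 28601 genes, against 13.8 with donors crossed and 6.67 without donors. Nothing says whether the cultures of a donor were split before or after stimulation, so p-values measure the spread between these samples.

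Reads were divided by median-of-ratios factors taken over 6 libraries, genes were kept by filterByExpr, and values were tested as log2(normalized count + 1) with limma 3.58.1 (R 4.3.3), with group and donor as terms, two-sided, and with Benjamini-Hochberg adjusted p-values called at 0.05. On that scale a low gene's fold change is understated. The empirical Bayes step used the mean-variance trend; the design as written down did not name it, and it was adopted after the fit without it had given 0 genes. The ADAR2 E396A libraries add residual degrees of freedom (2, against 1 with 4 libraries) and enter the fold change only through the scaling factors. Alternatives used edgeR 4.0.16 and DESeq2 1.42.0; those of edgeR and DESeq2 on 4 libraries were chosen after seeing the data.

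Members and gene lists were chosen with earlier results of these data known. Named genes are passing genes averaging 50 normalized counts or more, without predicted genes, clones, pseudogenes and receptor variable segments; values are given for the 15 highest, the 15 lowest, up to 6 passing members of each list, genes named whatever their result, and up to 3 other members of a list. Some further genes are not reported here.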

Additional observations from a re-analysis of the deposited data

How the results depend on the processing

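The number of calls depended on the processing. Without the donor block (the pairing read from the authors' statistics), 2 genes passed, 1 higher and 1 lower. Without the mean-variance trend 0 passed (1556 at an unadjusted p under 0.05); that fit came first, and the trend was adopted after seeing the data. With only the 4 libraries limma called 1237 (606 higher, 631 lower); there 1 residual degree of freedom leaves the spread to the trend alone, so each gene's own spread is not used. On those libraries edgeR called 1256 (604 and 652) and DESeq2 199 (100 and 99), also chosen after seeing the data. On 6 libraries DESeq2 called 212 (114 and 98), edgeR with TMM 136 and with median-of-ratios factors 127. Other settings gave 220 without the filter (113 and 107), 58 with a mean of at least 50 (29 and 29), 10 at an adjusted p under 0.01 (4 and 6), and 267 under 0.1 (138 and 129). With a 1.5-fold minimum 38 were higher, and with TMM scaling 92 were lower. Leaving out 1 library gave 1 to 1217 genes, 1 to 580 higher and 0 to 637 lower. No called gene changed sign in any of these, but they reused the same libraries and could hardly have shown such a change. Depth was 16496328 to 20127063 reads, so genes of few reads were measured poorly, and 2 libraries per group limit every test here.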
